A study of Mus musculus with 12 samples.

Results

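The comparison described here sets a mouse embryonic stem cell line named 41584 in the labels, taken here as 1 of the Dicer-complemented lines in the series title, against the Dicer knockout (KO). The libraries were taken by their labels, and the comparison uses 4 of the 12 poly(A) RNA libraries of the study, 2 of line 41584 and 2 of KO. All libraries came from the E14 embryonic stem line (129/Ola), and every group was grown in 15% serum with 100 U/mL LIF on 0.2% gelatin with 1 µg/mL puromycin. The labels describe the genotype of 41584 as like wild type (WT) and give KO only as a knockout. Of the other groups, WT and line 41585 serve as points of reference. The labels give WT no further detail and describe 41585, another numbered line, as processing neither miRNAs nor siRNAs. The meaning of the number 41584, the part of Dicer1 deleted, the sequence put back and the number of clones behind a line were not stated by any source used here. It is also unstated if paired libraries are separate cultures or 1 culture prepared more than once, so every p-value measures only the spread between these libraries.

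Dicer is the RNase III enzyme that cuts the hairpin precursors of miRNAs, and long double-stranded RNA, into short duplexes that guide Argonaute proteins. A miRNA recognises its targets mainly through its seed, the bases near its 5′ end, and pairing in a 3′ UTR lowers the level or the translation of the mRNA. In mouse embryonic stem cells the miR-290 cluster, together with the related miR-302 cluster, supplies a large part of all miRNA, and most of its members share a seed. The let-7 family, by contrast, is held at low levels in these cells by the LIN28 proteins.

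The seeds below were used to read the mRNA differences, and each is shown because its match was searched in the 3′ UTRs. Capitals mark bases 2 to 8. The mature sequences and positions are from RefSeq on GRCm38.p6. The first 4 share the seed of the miR-290 and miR-302 family, the fifth carries the miR-17 seed, which is the same word shifted by 1 base, and the last is a let-7.
mmu-miR-291a-3p (chr7:3218968-3218989, plus strand): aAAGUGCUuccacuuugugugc
mmu-miR-294-3p (chr7:3220691-3220712, plus strand): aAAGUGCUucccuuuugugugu
mmu-miR-295-3p (chr7:3220815-3220837, plus strand): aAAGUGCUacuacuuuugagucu
mmu-miR-302b-3p (chr3:127545275-127545297, plus strand): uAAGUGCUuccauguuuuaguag
mmu-miR-17-5p (chr14:115043684-115043706, plus strand): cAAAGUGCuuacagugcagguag
mmu-let-7a-5p (chr13:48538239-48538260, minus strand): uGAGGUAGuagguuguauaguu

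The 4 libraries held 7264826 and 7127320 counted reads in 41584 and 8357647 and 6610469 in KO, within the range of 5348401 to 10428509 over all 12. All 8 embryonic stem cell markers were detected in both groups. Levels are given as CPM, read counts scaled to the size of each library. The markers summed to 4746 and 4451 CPM in 41584 and 3827 and 3830 CPM in KO, but not every member followed the sum. Pou5f1 had 352 and 386 CPM in 41584 against 509 and 465 CPM in KO. Values of Sox2, Tdgf1 and Sall4 overlapped between the groups. The 2 libraries of 41584 differed from each other far more than those of KO: 24.8% of the tested genes lay more than 2-fold apart between them, against 4.70% in KO. Across all tested genes, replicate 1 of 41584 correlated at 0.935 with replicate 2 of its own line and at 0.980 with replicate 2 of WT. Replicate 2 of 41584 correlated at 0.978 with replicate 2 of SOM, a group whose name the labels do not explain. Replicate 2 of KO held no read from the 7 tested Y-linked genes, which summed to 421 CPM in replicate 1 of KO and to 331 and 546 CPM in 41584. Median log2 CPM of chromosome 15 genes, relative to each gene's median over the libraries, was 0.14 and -0.43 in 41584 and 0.11 and 0.09 in KO. Each of the 4 libraries was therefore left out in turn, and the resulting counts or p-values stand beside the main gene groups and the genes whose call was lost.

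Reads assigned to Dicer1 (chr12:104687742-104751952) gave 42.3 and 55.0 CPM in 41584 and 28.5 and 44.0 CPM in KO. WT held 197 and 214 CPM. The KO and 41584 values overlapped, and the difference was not called (log2 fold 0.43 ± 0.34, standard error of the fit; adjusted p = 0.522, edgeR quasi-likelihood test). The count of Dicer1 reads does not show how much Dicer protein either line made, and the label of 41584 could not be checked with it. None of the 10 genes of the Dicer and Microprocessor list was called by edgeR or by DESeq2 (0 at an unadjusted p under 0.05), while edgeR called 1 lower without replicate 2 of 41584. The list holds Drosha, Dgcr8 and Xpo5, whose products act before Dicer. DESeq2 called 3 of the 10 Argonaute and TNRC6 effectors, and 3 had an unadjusted p under 0.05 in edgeR. After adjustment edgeR called 1 of them, beside 7.44% of all tested genes. It was Tnrc6b, which couples Argonaute to deadenylation and was lower in 41584 (156 and 116 CPM against 305 and 274 CPM, log2 fold -1.09 ± 0.28, adjusted p = 0.0348). That call was lost without replicate 2 of 41584 (adjusted p = 0.117), replicate 1 of KO (0.240) or replicate 2 of KO (0.114).

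Of 14629 genes tested, 1088 were called at an adjusted p under 0.05 between 41584 and KO, which is 7.44% of those tested. Fewer were higher in 41584 (360 genes, 2.46%) than lower (728 genes, 4.98%). The median log2 fold of the called genes was 2.06 among those higher and 2.09, in size, among those lower, while the median over all tested genes was 0.05. More than 16-fold differences were fitted for 44 of the higher and 105 of the lower genes. The group with the lower level averaged under 1 CPM in 97 of all the higher and 152 of all the lower genes. Groups overlapped in 0 of the 360 higher and 0 of the 728 lower genes, so a lack of overlap adds nothing to a call. Leaving out a KO library lowered the calls to 203 (replicate 1) and 374 (replicate 2). They numbered 862 without replicate 1 of 41584 and 1332 without replicate 2. A set of 184 genes (1.26% of those tested) was called with all 4 libraries and without each of them, 28 higher and 156 lower in 41584.

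**Figure D1:**
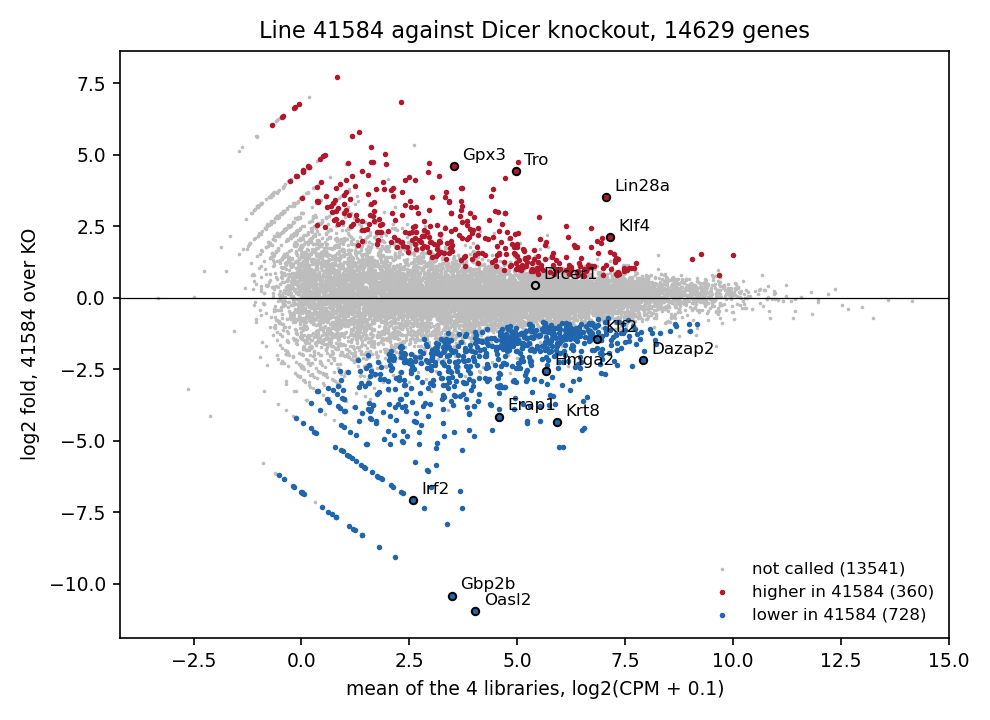
Log2 fold of 41584 over KO (vertical axis) against the mean level of the 4 libraries (horizontal axis, log2 of CPM plus 0.1) for 14629 tested genes, with 360 genes called higher in red, 728 called lower in blue and the others in grey. Named genes are circled; the folds of genes with no read in 1 group, such as Oasl2 and Gbp2b, depend on the prior count of the fit, and Dicer1 sits near 0.

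Interferon-stimulated genes were lower in 41584 as a group. Of 30 tested members of the interferon and double-stranded RNA sensing list, 18 were lower, none was higher and 12 were not called. The median log2 fold was -2.03, against 0.05 over all genes. For this list and those below, the shares over all tested genes are 4.98% lower and 2.46% higher. The count was 8 without replicate 1 of 41584, 14 without replicate 2, and for KO 3 and 9 without replicate 1 and 2. These genes encode sensors of viral RNA, the enzymes they activate and GTPases of cell-autonomous immunity.

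Oasl2 (chr5:114896936-114912234), a member of the oligoadenylate synthetase family, had no read in either 41584 library and 35.4 and 29.6 CPM in KO. It was at least 156-fold lower in 41584 (adjusted p = 0.000917). WT held 0.309 and 0.438 CPM, so the KO libraries stood far above both other groups. Gbp2 (chr3:142620602-142638008) and its neighbour Gbp2b (chr3:142594847-142619179) encode interferon-induced guanylate-binding GTPases. Gbp2b had no read in 41584 against 26.5 and 18.2 CPM in KO, at least 108-fold lower (adjusted p = 0.000233). Gbp2 had 0.128 and 0 CPM in 41584 against 16.6 and 11.7 CPM in KO, a count ratio of 206 with a 95% counting interval of 36.5 to 8161 (adjusted p = 0.000233). The pair is close in sequence, and how the authors' counting treated reads that fit both is not known, so the split between them is uncertain. All 3 are among the 12 largest negative folds, a set limited to genes called with and without each of the 4 libraries. Their wide separation and lasting calls follow from that choice.

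Some genes for regulators and sensors of the pathway were lower as well, and not all were called. Irf1 (chr11:53770014-53778374), a transcription factor that switches on interferon-stimulated genes, had 10.35 and 11.8 CPM in 41584 and 69.5 and 58.8 CPM in KO (log2 fold -2.53 ± 0.38, adjusted p = 0.00216). WT held 8.97 and 14.4 CPM, on either side of the 41584 libraries. Irf2 (chr8:46739732-46847458), a factor of the same family, had 0 and 0.155 CPM in 41584 and 15.7 and 7.70 CPM in KO. That is a count ratio of 174 with a counting interval of 30.8 to 6897 (adjusted p = 0.00238). The Irf1 and Irf2 calls held without each library. Irf2 was listed with the miR-290 and miR-302 targets, not with the interferon genes. The effect of a lower Irf2 on interferon-stimulated genes was not tested. Ifih1, which encodes the MDA5 sensor of long double-stranded RNA, had no read in 41584 against 4.27 and 1.85 CPM in KO, at least 15.2-fold lower (adjusted p = 0.0288). Its call was lost without any one of the 4 libraries (adjusted p of 0.0930 and 0.0655 without the 41584 libraries, 0.196 and 0.0575 without those of KO). Mavs, the adaptor downstream of that sensor, had 18.4 and 20.99 CPM against 47.9 and 47.1 CPM (-1.27 ± 0.25, adjusted p = 0.0104). That call was lost without replicate 1 of KO (0.105) or replicate 2 of KO (0.0663). The double-stranded RNA editor Adar (0.17, adjusted p = 0.729) was not called. Expression of Ddx58, which encodes the RIG-I sensor, split the 41584 libraries: 13.2 CPM in replicate 1 and 99.5 CPM in replicate 2, beside 126 and 107 CPM in KO.

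Genes of antigen processing had 3 of 11 tested members lower in 41584 and none higher, with a median log2 fold of -1.14. Tapbp (chr17:33915899-33929292), the tapasin that loads peptides on MHC class I, had 10.7 and 12.1 CPM in 41584 and 101 and 83.6 CPM in KO (-3.02 ± 0.28, adjusted p = 0.000207). Erap1 (chr13:74639568-74693201), the aminopeptidase that trims those peptides, had 1.92 and 3.11 CPM against 51.5 and 38.5 CPM (-4.17 ± 0.42, adjusted p = 0.000233). Psmb8, an immunoproteasome subunit, had 0.128 and 0 CPM against 9.15 and 4.003 CPM, a count ratio of 98.0 with a counting interval of 17.2 to 3908 (adjusted p = 0.00329). The 41584 libraries were both below both KO libraries in each gene, and all 3 calls held without each library. The class I chains H2-K1 (-0.47, adjusted p = 0.697) and H2-D1 (-1.14, adjusted p = 0.168) and the light chain B2m (0.28, adjusted p = 0.750) were not called.

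Promoters of 3 of the strongest of these genes are printed because they hold the core of the interferon-stimulated response element. The word searched was GAAANNGAAA on both strands, from 250 bases before to 50 after each RefSeq start. Overlapping matches were counted once per gene. Capitals mark the match, which reads on the minus strand of the gene in each. A promoter entry was matched by symbol for 10638 of the 14629 tested genes.
Gbp2 (GRCm38.p6 chr3:142620413-142620712, plus strand): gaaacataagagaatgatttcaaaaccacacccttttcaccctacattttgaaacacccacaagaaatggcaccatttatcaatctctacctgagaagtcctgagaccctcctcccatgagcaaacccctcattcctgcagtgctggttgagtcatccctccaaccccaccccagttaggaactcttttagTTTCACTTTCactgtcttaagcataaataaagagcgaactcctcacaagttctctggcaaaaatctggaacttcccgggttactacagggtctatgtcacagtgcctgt
Gbp2b (GRCm38.p6 chr3:142594597-142594896, plus strand): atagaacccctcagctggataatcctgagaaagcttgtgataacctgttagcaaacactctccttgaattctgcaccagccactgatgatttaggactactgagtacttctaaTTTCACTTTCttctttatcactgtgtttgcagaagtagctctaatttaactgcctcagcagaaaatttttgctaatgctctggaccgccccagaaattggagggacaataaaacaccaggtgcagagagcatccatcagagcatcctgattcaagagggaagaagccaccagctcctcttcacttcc
Erap1 (GRCm38.p6 chr13:74639603-74639902, plus strand): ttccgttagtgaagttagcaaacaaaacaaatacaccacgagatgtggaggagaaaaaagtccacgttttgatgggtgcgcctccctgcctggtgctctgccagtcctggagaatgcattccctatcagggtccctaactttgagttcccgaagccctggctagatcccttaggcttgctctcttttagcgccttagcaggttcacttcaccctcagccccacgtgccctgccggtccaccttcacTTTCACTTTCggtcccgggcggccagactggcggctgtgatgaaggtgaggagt

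The word was found in 3.99% of the 27025 genes with a promoter entry. Among tested genes it was found in 39 of 539 that were lower in 41584 (7.24%), in 9 of 272 that were higher (3.31%) and in 324 of 9827 that were not called (3.30%). Of the interferon list, 15 of 26 tested members with an entry held it (57.7%), and so did 10 of the 17 that were lower (58.8%). Those 10 are part of the 39. These are counts of a word in a window and show no binding.

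Epithelial keratins, junction proteins and surface proteases formed another group that was lower in 41584. Of 22 tested members, 12 were lower, none was higher and 10 were not called, with a median log2 fold of -1.97. Without 1 library the count was 8 (either library of 41584), 3 (replicate 1 of KO) or 7 (replicate 2 of KO). Krt8 (chr15:101996698-102004482), a keratin of simple epithelia, had 9.33 and 1.71 CPM in 41584 and 116 and 115 CPM in KO (-4.35 ± 0.82, adjusted p = 0.00791). Krt19, of the same class, had 3.20 and 1.55 CPM against 26.6 and 14.9 CPM (-3.10 ± 0.47, adjusted p = 0.00244). KO libraries were high and 41584 libraries low in both keratins, and the calls held without each library. Krt8 lies on chromosome 15, where replicate 2 of 41584 had the lower median given above. Of 569 tested genes of that chromosome, 36 were lower in 41584 and 4 higher, beside 4.98% and 2.46% of all tested genes. The part of that chromosome-wide level in the Krt8 difference was not tested.

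Epcam and Cdh1, adhesion genes of that list, were chosen after their values were seen. Epcam had 57.3 and 95.3 CPM in 41584 and 267 and 256 CPM in KO (-1.78 ± 0.37, adjusted p = 0.0131). Leaving out replicate 1 of 41584 (0.0744), replicate 1 of KO (0.0859) or replicate 2 of KO (0.0537) ended the Epcam call. Cdh1, E-cadherin, had 374 and 418 CPM against 759 and 739 CPM (-0.92 ± 0.25, adjusted p = 0.0433). Its call was lost without any one library (0.121 and 0.0603 without those of 41584, 0.263 and 0.172 without those of KO). Markers of trophectoderm, another epithelium, were low in all 4 libraries: the 6 fixed markers summed to 9.20 and 9.17 CPM in 41584 and to 17.3 and 10.6 CPM in KO, with Cdx2 at 0 in 3 of the 4 libraries. Of these markers Eomes ran the other way, with 6.78 and 6.53 CPM in 41584 and 2.93 and 2.93 CPM in KO, and Tfap2a had 2.05 and 2.33 CPM against 1.95 and 0.924 CPM. Within a wider trophectoderm list 5 of 11 tested members were lower in 41584, of which Krt8, Krt18 and Tead4 also stand in other lists. That count was 4 and 2 without replicate 1 and 2 of 41584, and 1 and 2 without those of KO. Elf5, a trophoblast factor, had 0.128 and 0 CPM against 9.27 and 3.69 CPM, a count ratio of 97.0 with a counting interval of 17.02 to 3870 (adjusted p = 0.0110, lost without replicate 1 of KO at 0.110). From bulk RNA, fewer cells of a type and less RNA per cell cannot be told apart.

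Published targets of the miR-290 and miR-302 family had 7 of 19 tested members lower in 41584 and none higher. Their median log2 fold was -0.94. The count was 6 and 7 without 1 library of 41584, and 3 and 2 without 1 library of KO. The sites of 6 lower genes are printed as examples of the full 8-base match, the complement of the seed followed by an A. It stands in 49 genes called lower and 9 called higher. Dazap2, a listed target described below, is not among them. Capitals mark that match. Sequences are from the 3′ UTRs of GENCODE M21 on GRCm38, and Erap1 and Oasl2, described above, belong to other lists.
Lats2 (chr14:57691075-57691104, minus strand): agtatggaaagAGCACTTAttttgtggata
Lefty1 (chr1:180938202-180938231, plus strand): actgtatgcgaAGCACTTAcatgtatagat
Tgfbr2 (chr9:116087760-116087789, minus strand): tcaaaacctaaAGCACTTAttttcaatcta
Irf2 (chr8:46846653-46846682, plus strand): ccttatcttgaAGCACTTAcaataggcctt
Erap1 (chr13:74691622-74691651, plus strand): taactcataatAGCACTTActgaaaataaa
Oasl2 (chr5:114911511-114911540, plus strand): gcctttatctcAGCACTTAgagaatttctg

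Dazap2, a small proline-rich protein on chromosome 15, had 108 and 66.4 CPM in 41584 and 399 and 393 CPM in KO (-2.19 ± 0.32, adjusted p = 0.00211), and its call held without each library. Lefty1, a secreted inhibitor of Nodal, had 3.45 and 4.82 CPM against 20.2 and 30.8 CPM (-2.63 ± 0.49, adjusted p = 0.00719), lost without replicate 2 of KO (0.0570). Tgfbr2, the type II TGF-beta receptor, had 2.17 and 1.55 CPM against 7.68 and 10.8 CPM (-2.29 ± 0.50, adjusted p = 0.0159), lost without replicate 1 (0.0729) or 2 (0.121) of KO. For these genes all 41584 values lay below all KO values. Lats2, a kinase of the Hippo pathway, had 2.81 and 8.55 CPM in 41584 against 29.9 and 22.3 CPM in KO (-2.21 ± 0.55, adjusted p = 0.0292). WT held 1.24 and 1.53 CPM of Lats2, below both 41584 libraries. The Lats2 call was lost without replicate 1 of 41584 (0.121), replicate 1 of KO (0.207) or replicate 2 of KO (0.0806). Cdkn1a, the cell cycle inhibitor p21 and a listed target, had 68.9 and 25.8 CPM against 92.6 and 89.8 CPM and was not called (-0.94, adjusted p = 0.152).

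The same seed matches were counted over all tested genes with a 3′ UTR of at least 50 bases, 12890 in number, of which 5.44% were lower and 2.65% higher in 41584. The 7-base match AGCACTT stood in 2286 genes. Of these, 164 were lower (7.17%), against 537 of 10604 without it (5.06%). The 8-base match AGCACTTA was rarer and its genes lower more often: 49 of 464 (10.6%) were lower in 41584, against 652 of 12426 without it (5.25%). Genes higher in 41584 were 9 of 464 with the 8-base match (1.94%) and 333 without it (2.68%). UTR length differs between genes with and without a match, so the medians are given within terciles of length. With and without the 8-base match the median log2 fold was -0.42 and -0.01 among short UTRs (29 genes with it), -0.29 and 0.04 among middle ones (108 genes) and -0.04 and 0.12 among long ones (327 genes). The miR-17 match GCACTTT, which overlaps the miR-290 and miR-302 word by 6 bases, gave 156 of 1887 genes lower (8.27%) against 4.95% without it. Among short UTRs the miR-17 shares ran the other way, 4.38% against 4.83%. They were 11.1% against 5.30% among middle and 7.54% against 4.69% among long UTRs. The 7-base match gave 5.30% lower against 4.795% among short, 8.90% against 5.51% among middle and 6.68% against 4.88% among long UTRs. Among short UTRs 4.64% of genes with the 7-base match were higher, against 2.14% without it. Over all lengths the let-7 match CTACCTC gave 74 of 1392 lower (5.32%) against 5.45% without it. Genes are not independent replicates, and these shares are a description without a test.

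**Figure D2:**
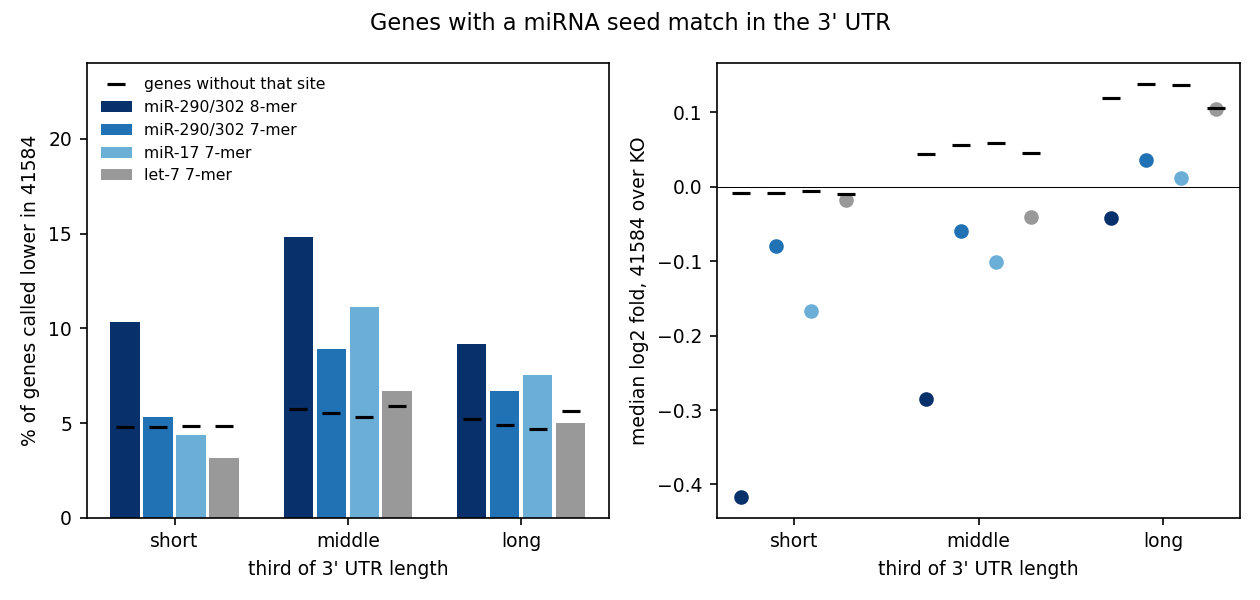
Left, percent of genes called lower in 41584 (bars, genes with the match; black dashes, genes without it) by tercile of 3′ UTR length; right, median log2 fold of 41584 over KO for the same genes (dots and dashes). Genes with the 8-base miR-290 and miR-302 match have the lowest median in each tercile, at -0.42, -0.29 and -0.04, and let-7 matches lie near the genes without one.

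In WT against 41585, which shares no library with 41584 against KO, 17.1% of the genes with a 3′ UTR were lower in WT. With the 8-base match the share was 41.4% among short UTRs, 35.2% among middle and 12.2% among long ones, against 22.7%, 16.7% and 11.1% without it. Over all lengths the 8-base match gave 19.4% against 16.99%, and the 7-base match 15.8% against 17.4%. The shorter word ran the other way only with all lengths pooled. By tercile it gave 25.2% against 22.7% among short, 22.7% against 16.3% among middle and 12.1% against 10.7% among long UTRs. The let-7 match gave 14.6% against 17.4% over all lengths, 26.2% against 22.7% among short, 19.9% against 16.9% among middle and 10.4% against 11.4% among long UTRs.

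Around let-7, 4 of 23 tested genes were lower in 41584 and 2 higher, beside 4.98% and 2.46% of all tested genes. The median log2 fold was -0.02. Without 1 library the lower count ranged from 1 to 5 and the higher count from 1 to 3. Hmga2 (chr10:120361275-120476469), a chromatin protein and a classical let-7 target, had 14.2 and 14.9 CPM in 41584 and 101 and 73.4 CPM in KO (-2.58 ± 0.34, adjusted p = 0.00115). Lin28a (chr4:134003330-134018841), the RNA-binding protein that blocks let-7 maturation and is itself a let-7 target, went the other way, with 162 and 326 CPM in 41584 and 18.5 and 24.2 CPM in KO (3.52 ± 0.37, adjusted p = 0.000270). Both calls held without each library. Its paralogue Lin28b had 26.3 and 41.0 CPM against 85.3 and 67.9 CPM (-1.19 ± 0.27, adjusted p = 0.0196). That call was lost without replicate 1 of 41584 (0.0962), replicate 1 of KO (0.214) or replicate 2 of KO (0.0574). LIN28A and LIN28B thus differed in opposite directions at the mRNA level.

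Immediate early genes, which code for transcription factors and phosphatases induced by growth signals or stress, had 7 of 15 tested members lower in 41584 and none higher. The median log2 fold was -1.50, and the count without 1 library ranged from 2 to 5. Dusp1, a phosphatase of MAP kinases, had 19.4 and 10.3 CPM in 41584 and 65.4 and 60.0 CPM in KO (-2.07 ± 0.31, adjusted p = 0.00216). Klf6 had 48.3 and 56.6 CPM against 144 and 156 CPM (-1.52 ± 0.26, adjusted p = 0.00472). Both calls held without each library. Fosl2, a FOS family factor, had 2.56 and 2.33 CPM against 17.7 and 20.01 CPM (-2.94 ± 0.56, adjusted p = 0.00806), lost without replicate 1 of KO (0.0508). In the Hippo list 4 of 18 members were lower and none higher, the median being -0.44, and 3, 4, 2 and 1 were lower without replicate 1 and 2 of 41584 and 1 and 2 of KO. Ccn2, a secreted product of YAP and TEAD activity, had 27.1 and 25.3 CPM against 78.7 and 80.2 CPM (-1.60 ± 0.26, adjusted p = 0.00383), a call that held without each library. The signalling list of the Nodal, TGF-beta and BMP pathways had 3 of 21 members lower and none higher (median -0.27). FGF-ERK feedback had 2 of 16 lower and 1 higher (median 0.25). Of all tested genes, 4.98% were lower and 2.46% higher. No call in either list held without each of the 4 libraries.

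The genes with the largest folds in each direction, among those called with and without each library, were named by rule. Lower in 41584, beyond those above, were Ren1 (chr1:133350510-133360325), the renin gene, with no read in 41584 and 8.66 and 8.93 CPM in KO, at least 41.7-fold lower (adjusted p = 0.000523). Krtdap, a keratinocyte protein, had 0.128 and 0.155 CPM against 22.4 and 29.6 CPM, a count ratio of 182 with a counting interval of 50.1 to 1512 (adjusted p = 0.00472). C1qtnf9, a secreted C1q-like protein, had 0 and 0.466 CPM against 30.1 and 20.3 CPM, a count ratio of 123 with a counting interval of 41.6 to 597 (adjusted p = 0.000523). In each of these the KO libraries were both above 8 CPM and the 41584 libraries both below 1 CPM. Pglyrp3 and Sgcz had no read in 41584 and were at least 33.3-fold and 24.3-fold lower. Rassf9 and Aox3 had 1 read in 41584, with count ratios of 146 (counting interval 25.9 to 5824) and 142 (25.03 to 5632).

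Higher in 41584 was Gpx3 (chr11:54902453-54910377), a secreted glutathione peroxidase, with 20.8 and 23.3 CPM in 41584 and 0.732 and 1.08 CPM in KO (4.60 ± 0.52, adjusted p = 0.000429). Tro, the trophinin gene on the X chromosome, had 62.9 and 56.3 CPM against 1.34 and 4.31 CPM (4.43 ± 0.42, adjusted p = 0.000207). Crabp1, which binds retinoic acid in the cytoplasm, had 23.8 and 10.3 CPM against 0.976 and 0.770 CPM (4.25 ± 0.55, adjusted p = 0.00104). Both 41584 libraries stood well above both KO libraries in each. Serpine2, a secreted inhibitor of serine proteases, had 62.9 and 35.9 CPM against 2.07 and 3.39 CPM (4.19 ± 0.50, adjusted p = 0.000682). Axin2, a target and inhibitor of Wnt signalling, had 6.78 and 6.995 CPM against 0.610 and 0.154 CPM (4.05 ± 0.63, adjusted p = 0.00301). Shisa2, Prmt8, Chrna7 and Pla2g1b, also among these 12, had log2 folds of 3.85, 3.82, 3.80 and 3.57. Piwil4, a PIWI protein, had 8.57 and 12.4 CPM against 0.488 and 0.616 CPM (4.22 ± 0.55, adjusted p = 0.00103). Tex15, which acts in male meiosis and transposon silencing, had 46.3 and 33.9 CPM against 2.56 and 3.23 CPM (3.79 ± 0.54, adjusted p = 0.00175). Fmr1nb, a cancer-testis antigen, had a log2 fold of 3.82 ± 0.54 (adjusted p = 0.00175). In the separate list of germline genes silenced by DNA methylation, edgeR called 2 of 22 members higher, Dazl and Sycp3, and 1 lower. DESeq2 called 6 higher and 1 lower. At an unadjusted p under 0.05 in edgeR stood 13 of the 22, beside 3303 of all 14629 tested genes. Of all tested genes, edgeR called 2.46% higher and 4.98% lower. The median of the list was 1.22. The higher count was 1 and 5 without replicate 1 and 2 of 41584 and 0 without either KO library.

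**Figure D3:**
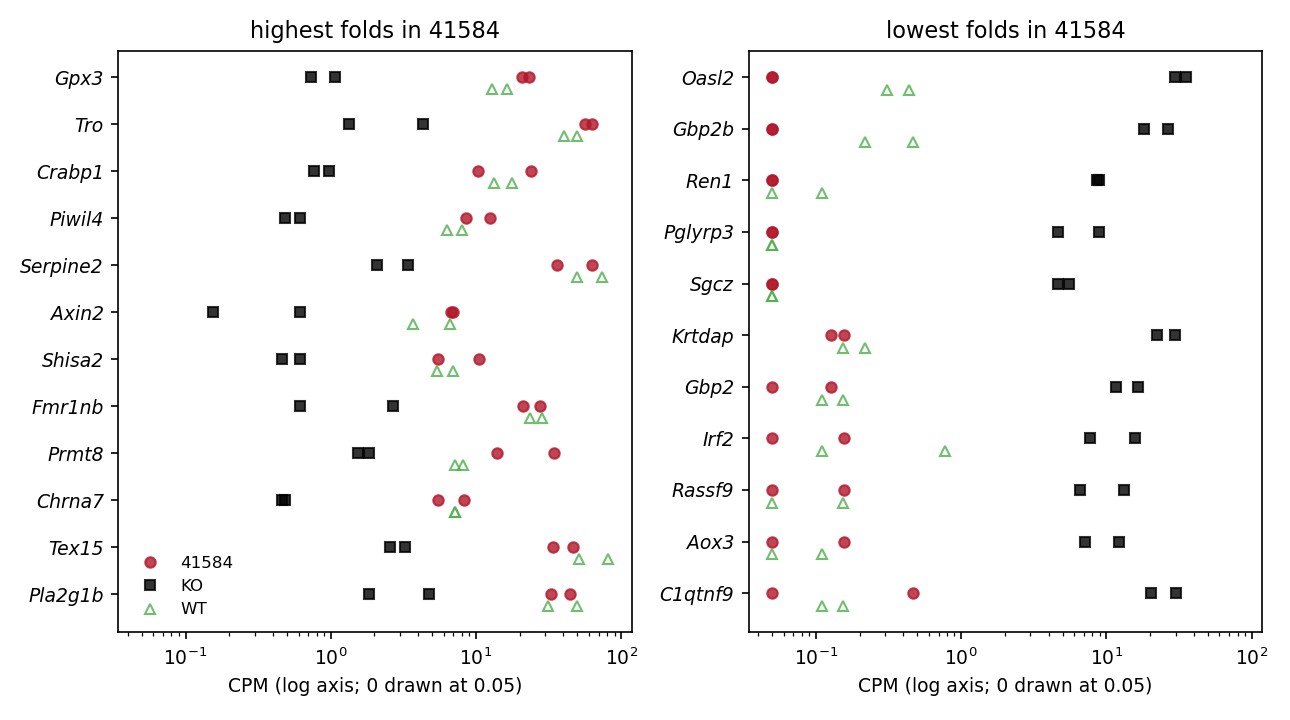
CPM on a log axis for the 12 genes with the highest (left) and 11 of the 12 with the lowest (right) folds in 41584 against KO, 1 symbol per library (red circles 41584, black squares KO, open green triangles WT). The 23 genes were chosen for these differences, so the separation of the groups is a description, and a level of 0 is drawn at 0.05.

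Among core and naive pluripotency genes, 5 of 22 were higher in 41584 and 1 lower, beside 2.46% and 4.98% of all tested genes. The median log2 fold was 0.21. Without replicate 1 and 2 of 41584 the higher count was 3 and 4, and without either KO library 1. Klf4 (chr4:55527143-55532466), a naive pluripotency factor, had 253 and 208 CPM in 41584 and 53.8 and 51.7 CPM in KO (2.12 ± 0.26, adjusted p = 0.000832). Klf2 (chr8:72319033-72321656), a close relative, was lower, with 51.4 and 73.8 CPM against 176 and 163 CPM (-1.43 ± 0.24, adjusted p = 0.00393). Both calls held without each library, and these 2 factors of 1 family differed in opposite directions. Klf5, another of the family, had 100 and 102 CPM against 47.7 and 43.6 CPM (1.14 ± 0.26, adjusted p = 0.0204), lost without replicate 1 of 41584 (0.0511), replicate 1 of KO (0.155) or replicate 2 of KO (0.176). Pou5f1 (-0.40, adjusted p = 0.647), Sox2 (0.20, adjusted p = 0.727), Nanog (0.21, adjusted p = 0.658) and Esrrb (0.36, adjusted p = 0.414), which hold the pluripotent state, were not called. No member of the formative and primed epiblast list (14 tested, median -0.07) or of the LIF and STAT3 list (13 tested, median 0.23) was called by edgeR. At an unadjusted p under 0.05 there were 2 and 6, and DESeq2 called 2 and 1. With a replicate block edgeR called 1 higher in the first list and 2 lower in the second. Without replicate 2 of 41584 edgeR called 4 lower in the first list and 2 higher in the second, without replicate 1 it called 1 lower in the second, and without the filter on low counts 2 higher and 3 lower in the first and 2 lower in the second.

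Genes of primitive endoderm, the extraembryonic lineage that arises beside the epiblast, had 7 of 11 tested members higher in 41584 and none lower, with a median log2 fold of 2.12. The count was 2 without replicate 1 of 41584, 8 without replicate 2, and for KO 0 and 2 without replicate 1 and 2. Dab2, an endocytic adaptor, had 33.5 and 4.20 CPM in 41584 and 1.95 and 0.924 CPM in KO (3.68 ± 0.83, adjusted p = 0.0181). Its call was lost without replicate 1 of 41584 (0.188), replicate 1 of KO (0.114) or replicate 2 of KO (0.150). Pdgfra, a receptor that marks the lineage, had 13.9 and 4.97 CPM against 1.34 and 0.616 CPM (3.23 ± 0.67, adjusted p = 0.0127), lost without replicate 1 of 41584 (0.0665), replicate 1 of KO (0.0804) or replicate 2 of KO (0.128). Gata6, a master regulator of the lineage, had 5.11 and 4.35 CPM against 0 and 0.154 CPM, a count ratio of 70.1 with a counting interval of 12.2 to 2809 (adjusted p = 0.00971, lost without replicate 1 of KO at 0.139). Replicate 1 of 41584 stood highest in most of these genes, and the 7 fixed markers summed to 68.1 CPM there, 17.6 CPM in replicate 2, 9.27 and 5.85 CPM in KO and 26.3 and 14.2 CPM in WT. Cubn, a receptor of the visceral endoderm surface chosen after its values were seen, had 38.9 and 8.08 CPM against 2.44 and 2.001 CPM (3.39 ± 0.81, adjusted p = 0.0242, lost at 0.176, 0.188 and 0.165 without replicate 1 of 41584, 1 of KO and 2 of KO). Gata4, likewise, was 10.9 and 1.40 CPM against 5.61 and 3.85 CPM and was not called (0.38, adjusted p = 0.807). Mesendoderm markers summed to 4.86 and 18.96 CPM in 41584 and 5.001 and 5.54 CPM in KO. Most of that sum was Kdr (3.32 and 17.7 CPM against 4.51 and 5.08 CPM), with Mesp1 at 0 in all 4 libraries and T, Mixl1 and Gsc each at 1.02 CPM or less. Fibroblast markers summed to 41.2 and 8.71 CPM in 41584 and 10.1 and 8.93 CPM in KO, most of it from Thy1 and Pdgfrb, with Dcn at 0 in 3 of the 4 libraries.

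Targets of p53, the transcription factor of the DNA damage response, had 7 of 22 members higher in 41584 and 1 lower, with a median log2 fold of 0.35. None of these calls held without each of the 4 libraries: the count of higher genes was 5 and 2 without 1 library of 41584 and 0 without either KO library. Zmat3 had 279 and 323 CPM against 123 and 135 CPM (1.22 ± 0.25, adjusted p = 0.0115, lost at 0.155 and 0.0868 without replicate 1 and 2 of KO). Mdm2, the ubiquitin ligase that limits p53 and a gene chosen after its values were seen, had 243 and 320 CPM against 119 and 158 CPM (1.02 ± 0.28, adjusted p = 0.0412, lost at 0.122, 0.363 and 0.121 without replicate 2 of 41584, 1 of KO and 2 of KO). Cartilage and extracellular matrix genes had 4 of 22 higher and 2 lower, beside 2.46% and 4.98% of all tested genes, with a median of 0.60. The higher count was 3 and 8 without replicate 1 and 2 of 41584 and 0 and 1 without those of KO. Acan, the cartilage proteoglycan aggrecan, had 16.2 and 6.995 CPM against 0.976 and 0.308 CPM (4.10 ± 0.78, adjusted p = 0.00821, lost at 0.0548 and 0.0834 without replicate 1 and 2 of KO). None of the 24 ribosomal protein, 13 mitochondrially encoded, 12 DNA methylation, 12 early cleavage stage, 6 Hox and 7 Y-linked genes tested was called by edgeR. At an unadjusted p under 0.05 stood 5 of the DNA methylation and 1 of the Hox genes and 0 of the others, and DESeq2 called 1 gene in each of these 2 lists. EdgeR called 4 Y-linked genes higher without replicate 1 of KO, which leaves the KO library with no Y-linked read, and 4 without the filter. Without replicate 1 of 41584 it called 1 DNA methylation gene higher and 1 lower, and without replicate 2 it called 1 lower and 1 Hox gene higher. The other lists had 1 to 3 calls each or none.

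**Figure D4:**
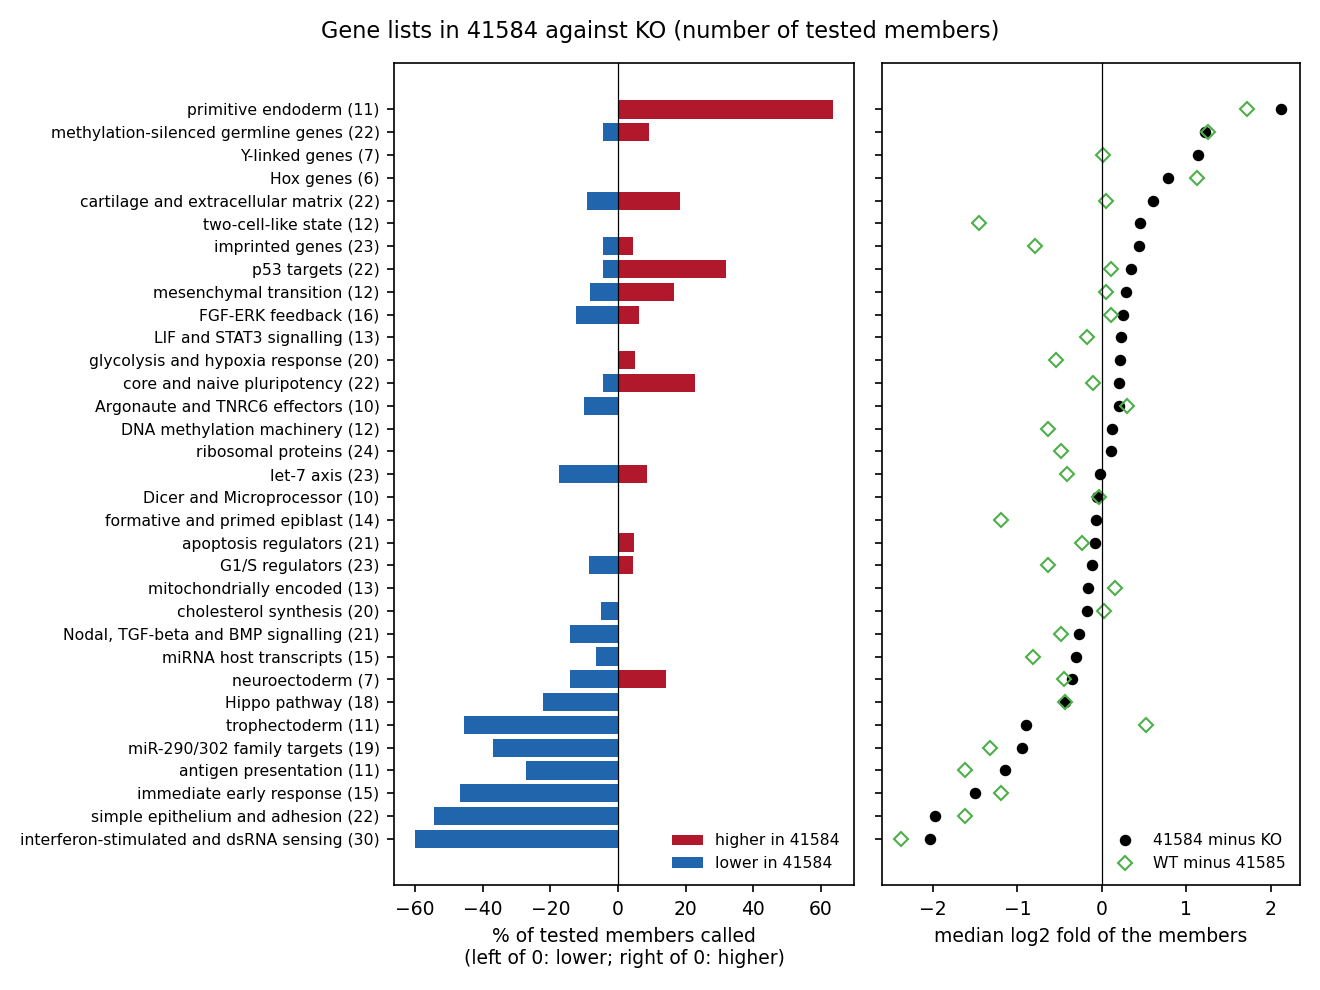
Left, percent of the tested members of each list called higher (red, right of 0) or lower (blue, left of 0) in 41584 against KO, with the number tested in brackets; right, median log2 fold of the members in 41584 minus KO (black) and in WT minus 41585 (green diamonds), for lists with at least 5 tested members. The interferon list has 18 of 30 members lower and the primitive endoderm list 7 of 11 higher.

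Some abundant genes differed more between the 2 libraries of 41584 than between the groups. Meg3, a maternally expressed long RNA of the imprinted Dlk1-Dio3 region, had 1.53 and 187 CPM in 41584 and 135 and 1.08 CPM in KO (0.46 ± 1.80, adjusted p = 0.917). Rian, from the same region, had 8.95 and 657 CPM against 385 and 8.78 CPM (0.75 ± 1.71, adjusted p = 0.850). In both RNAs 1 library of each group was high and the other low, and the numbers of the high libraries differed between the groups. Ttn had 18.7 and 353 CPM, Enox1 6.26 and 116 CPM, Rhox5 41.4 and 4.51 CPM and Vldlr 44.1 and 4.97 CPM in 41584. These 4 had 198 and 152, 96.1 and 75.1, 137 and 106, and 20.2 and 19.4 CPM in KO, in the same order. None of the 6 was called between 41584 and KO with all libraries. Without replicate 2 of 41584, Enox1 (adjusted p = 0.0110) and Ttn (0.0316) were called lower, and without replicate 1 Rhox5 was (0.0357).

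Between WT and 41585, a comparison of the same kind that shares no library with the present one, 4274 genes were called (29.2%), 1891 higher in WT (12.9%) and 2383 lower (16.3%). Of the 360 genes higher in 41584 against KO, 273 were also higher in WT against 41585, which is 75.8% of the first list and 14.4% of the second. Of the 728 lower genes, 545 were also lower in WT (74.9% and 22.9%). No gene was called in opposite directions. The sign was shared by 98.9% of the higher and 98.6% of the lower genes, and by 73.3% of all tested genes. Across 14629 genes the log2 folds of the 2 comparisons correlated at 0.71, a description only, since both come from 1 fit and 1 scaling. The interferon list had a median of -2.38 with 18 of 30 lower in WT, the epithelial list -1.62 with 13 of 22 lower, and the miR-290 and miR-302 targets -1.33 with 10 of 19 lower. The primitive endoderm list had a median of 1.71 with 4 of 11 higher and 1 lower, and the trophectoderm list had a median of 0.52 with 3 of 11 lower and 1 higher.

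**Figure D5:**
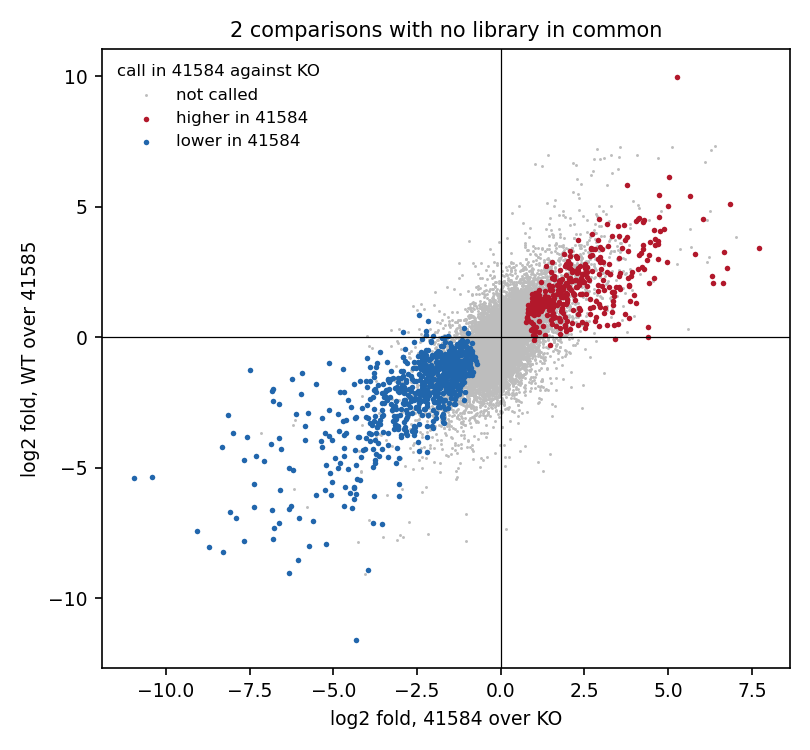
Log2 fold of WT over 41585 (vertical axis) against log2 fold of 41584 over KO (horizontal axis) for 14629 genes, with genes called in 41584 against KO in red (higher) and blue (lower). Nearly all called genes lie in the lower left or upper right quadrant, 98.9% of the red and 98.6% of the blue points.

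Set against WT directly, 41584 had no gene called by edgeR (0.0% of 14629), while 706 genes had an unadjusted p under 0.05 and the smallest adjusted p was 0.347. DESeq2 called 27 genes, and edgeR called 106 when replicate 1 of 41584 was left out. With libraries of 41584 as far apart as these, the count of 0 does not show that the line equals WT. WT against KO, which shares the KO libraries, had 1929 genes called (13.2%). Dicer1 itself had a log2 fold of -2.08 in 41584 against WT (adjusted p = 0.347). Klf4 (-0.44, adjusted p = 0.883), Irf1 (-0.09, adjusted p = 0.977) and Tapbp (0.11, adjusted p = 0.955) in 41584 against WT had small fitted folds. Lats2 (1.997, adjusted p = 0.883), Ccn1 (1.44, adjusted p = 0.758) and Sparc (0.99, adjusted p = 0.494) had larger ones that were not called.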

How the data were processed

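Poly(A) RNA libraries were made by the submitters with TruSeq reagents, reverse-stranded, and aligned with STAR 2.4.2a to mm10 (GRCm38), per the submitters' processing notes and the labels' protocols. Of the counting program and its annotation, nothing was given in the sources used here. The authors deposited unnormalised counts for 47643 genes in each library. GENCODE M21 gave symbols to 47224 of them, positions and 3′ UTRs.

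Counts were tested with edgeR 4.0.16 in R 4.3.3 (TMM, filterByExpr, robust quasi-likelihood, all 12 libraries, 1 mean per group, 6 residual degrees of freedom), leaving 14629 genes and a common biological coefficient of variation of 0.278. Calls are Benjamini-Hochberg adjusted p under 0.05 over all genes tested. CPM are counts over TMM-scaled totals. The script was tested on simulated data. DESeq2 1.42.0, RLE factors, no filter, a replicate block, 4 libraries only and leaving out each library were alternatives. A group reduced to 1 library was taken to have the spread of the rest. Where a group held no read, the fold is a bound against 3 counts over the group; with 1 to 3 counts, the count ratio has an exact 95% interval. Both cover counting error only.

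Named genes are Dicer1, the 12 largest folds in each direction called with and without each library with at least 5 CPM in the higher group and an ordinary symbol, up to 4 called members of each of 35 lists by adjusted p, members needed to state what a list did, and the 6 largest differences between the 41584 libraries at a mean of 20 CPM or more. The comparison, members and lists were chosen with earlier results of these data known. List medians were the same with low-count members set at their bound. Of the genes the rule names, 1 is not reported here.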

Additional observations from a re-analysis of the deposited data

How the results depend on the processing

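Against the 1088 genes called between 41584 and KO, there were 1858 with no filter on low counts, 384 with only the 4 libraries in the fit, and 203 to 1332 when 1 library was left out. Of 93 named genes called, 58 were called under every alternative that kept all libraries compared, and fewer when leaving out a library was also asked. Genes named for the largest folds had to be called with and without each library. The named genes therefore overstate how often a call lasted. For 41584 against WT, edgeR called 132 without the filter, DESeq2 27 and the fits with 1 library left out 0 to 106. WT against KO gave 1929 calls, 2950 without the filter, 4892 with 4 libraries only and 237 to 606 with 1 library left out. WT against 41585 gave 4274, and 419 to 2711 with 1 library left out. The share of genes lower in 41584 was 7.17% with the 7-base and 10.6% with the 8-base match. Signs turned for genes that were not called with all libraries. When 1 library was left out, the log2 fold ranged from -3.77 to 0.44 for Enox1, -1.75 to 1.19 for Gata4, -5.47 to 6.43 for Meg3, -4.46 to 5.24 for Rian, -3.23 to 1.01 for Ttn and -1.99 to 1.15 for Vldlr. Calls gained by such fits were Enox1 (adjusted p = 0.0110) and Ttn (0.0316) without replicate 2 of 41584 and Rhox5 (0.0357) without replicate 1, and Rhox5 was also called with the replicate block (0.0174) and without the filter. With a replicate block it was -0.23 for Meg3, -0.73 for Ttn and -0.18 for Vldlr. The cause was not tested. The replicate block gave 1313 calls, and the deviations of same-numbered libraries of 41584 and KO correlated at -0.038, so the numbers were not taken as pairs in this comparison. Deviations of 41584 correlated at 0.325 with 41585, 0.251 with SOM, 0.182 with 41589 and 0.057 with WT, all groups of the same fit. With 2 libraries a group, the depths given above and the spread within 41584, small differences could not be detected.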

Other observations

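A stretch of chromosome 1 (chr1:130000000-160000000), chosen after its values were seen, set WT apart from 41584, KO and 41585. Of 106 protein-coding genes there at 5 CPM or more, 99 had a positive log2 fold of 41584 over WT, with a median of 0.84, against -0.07 over the 468 other such genes of the chromosome. The same genes had a median of 0.13 in 41584 against KO and of -0.68 in WT against KO. In WT against 41585 the median was -0.70. The labels say nothing of the karyotype of these lines, and the part of this stretch in the results was not tested.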
